A study of Mus musculus with 6 samples.

Results

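The p53 pathway is represented here by 10 genes, which were followed in embryonic hearts that lack PKM1, the muscle form of pyruvate kinase, and in WT hearts. The set is *Trp53*, the mouse gene for p53, and 9 of its well known targets: *Mdm2*, *Cdkn1a*, *Ccng1*, *Bax*, *Phlda3*, *Sesn1*, *Trp53inp1*, *Zmat3* and *Plk2*. They were taken by gene symbol from a count table of 13809 genes, and all 10 were present and passed the filter on low counts. The study compared ventricles of E18.5 embryos, 3 WT libraries with 3 *Pkm1*-KO libraries, where the labels say heart. The KO allele is a short deletion made with CRISPR/Cas9 in the exon that only *Pkm1* uses, so it is carried by every tissue of the embryo from fertilisation on. The study bred KO embryos by crossing heterozygotes, whether the sequenced WT embryos were littermates is not stated for these libraries, and the labels name no treatment. Whether a library came from 1 heart or from a pool is not stated in the sources used here.

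p53 is a transcription factor whose protein is kept scarce by the ubiquitin ligase MDM2 and rises when DNA is damaged or growth signals are disturbed. It then switches on genes that halt the cell cycle, start apoptosis, curb growth signals or feed back on p53 itself. Because p53 is mainly controlled at the protein level, its mRNA and those of its targets need not move together.

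WT libraries held 15597756 to 19875546 counts and KO libraries 15567624 to 18577404. Levels are given as CPM, counts scaled to library size, and 3 counts are worth 0.151 to 0.193 CPM, a floor that covers counting error only. The targeted gene *Pkm*, whose counts include both splice forms, averaged 1320 ± 41.1 CPM in WT against 542 ± 10.1 CPM in KO hearts (SD, n = 3 each). Its log2 fold change was -1.28. The groups also parted by sex-linked transcripts: *Xist*, transcribed from the inactive X chromosome, averaged 5.26 CPM in WT against 2280 CPM in KO hearts, and 4 Y-linked genes had 0 counts in every KO library. Sex and genotype therefore cannot be told apart for any value below, although none of the 10 genes lies on X or Y. Within a genotype, the mean chi-square per gene between library pairs, where 1 is sampling noise, was 1.56 to 3.91, and the highest values involved WT c. The columns carry no replicate numbers, so libraries are named a to c in column order. In bulk tissue, fewer cells of a type and less RNA per cell cannot be told apart.

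The start of *Ccng1* and the upstream start of *Cdkn1a* are shown because theirs were the only windows of the set with a p53 site of 20 letters that differed from the consensus in at most 1 letter. The sequences are RefSeq's on GRCm38.p6, read 5′ to 3′ on each gene's own strand from 250 to 31 bases before the start. Capitals mark that p53 site and every CCAAT or its reverse complement ATTGG.
Ccng1, minus strand, chr11:40755317-40755536: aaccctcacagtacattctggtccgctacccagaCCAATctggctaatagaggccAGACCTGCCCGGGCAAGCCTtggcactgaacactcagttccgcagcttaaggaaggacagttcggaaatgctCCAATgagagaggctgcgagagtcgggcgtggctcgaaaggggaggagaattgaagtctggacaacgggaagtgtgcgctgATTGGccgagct
Cdkn1a, plus strand, chr17:29090729-29090948: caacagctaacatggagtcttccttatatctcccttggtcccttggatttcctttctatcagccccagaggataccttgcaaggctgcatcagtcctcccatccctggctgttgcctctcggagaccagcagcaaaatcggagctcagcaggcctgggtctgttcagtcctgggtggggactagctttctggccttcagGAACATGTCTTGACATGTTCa
The *Ccng1* site begins at position -195 and the *Cdkn1a* site at position -51, counted from the start. Both genes were lower in KO hearts, as described next. This form of the site was chosen after the data were seen, so the pairing is a description only.

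**Figure D1:**
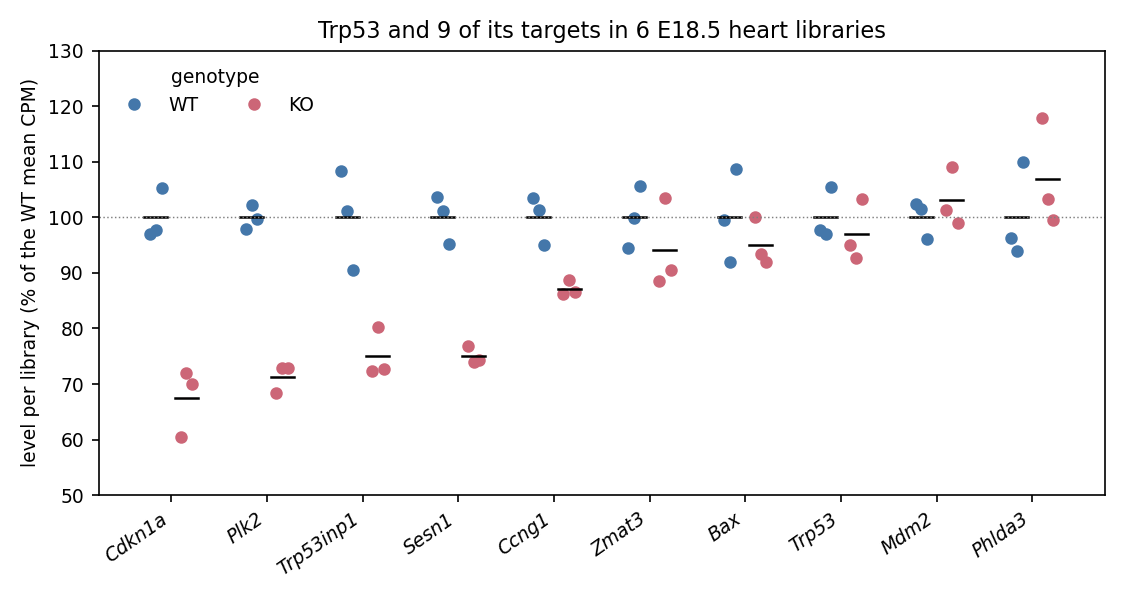
Level of each of the 10 genes in each library as a percentage of that gene's WT mean CPM (y axis, drawn from 50%), with WT in blue, KO in red and group means as black bars. For *Cdkn1a*, *Plk2*, *Trp53inp1*, *Sesn1* and *Ccng1* every KO point lies below every WT point, and for the other 5 genes the groups overlap.

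In KO hearts, 5 of the 10 genes were lower and 0 were higher by edgeR's quasi-likelihood test (adjusted p under 0.05, Benjamini-Hochberg over 13804 genes). At an unadjusted p under 0.05 the same test also gave 0 higher, as did DESeq2, limma's voom and edgeR's exact and likelihood ratio tests after adjustment. Of all genes tested, 15.7% were lower and 14.6% higher. The KO libraries lay below all WT libraries for the same 5 genes, against 21.4% of all genes tested. The median log2 fold change was -0.14 over the 10 genes and 0.00 over all genes tested. The 10 genes were chosen with earlier results of these data known, so these counts are a description only. The genes that fell act in cell cycle arrest (*Cdkn1a*), feedback on p53 (*Ccng1*), the response to metabolic and oxidative stress (*Sesn1*, *Trp53inp1*) and as a stress-induced kinase (*Plk2*).

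*Trp53* itself was at 41.4, 41.1 and 44.7 CPM in WT a, b and c and at 40.3, 39.3 and 43.8 CPM in KO a, b and c. The groups overlapped through KO c alone, while KO a and KO b lay below every WT library. Its log2 fold change was -0.04 with a 95% interval of -0.16 to 0.08 (adjusted p = 0.648, edgeR's quasi-likelihood test), so a change of the mRNA between a fall of 10.6% and a rise of 5.77% is within the interval. About 3.95% of the 50-base words in its transcripts also occur in other genes, mainly the pseudogene *Trp53-ps*. *Mdm2*, the ligase that marks p53 for degradation and is itself a p53 target, was at 57.6, 57.1 and 54.1 CPM in WT and 57.0, 61.4 and 55.7 CPM in KO. Its groups overlapped too, with a log2 fold change of 0.04 and a 95% interval of -0.07 to 0.15 (adjusted p = 0.599, edgeR's quasi-likelihood test).

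*Ccng1* encodes cyclin G1, which recruits a phosphatase to MDM2 and so takes part in feedback on p53. It lies on chr11:40748552-40755311 on the minus strand of GRCm38. It was at 293, 287 and 269 CPM in WT and 244, 251 and 245 CPM in KO. WT c was the lowest WT library and still stood 1.07 times above KO b, the highest KO library. The log2 fold change was -0.20 (SE 0.0339, 95% interval -0.27 to -0.13, adjusted p = 5.48e-05, edgeR's quasi-likelihood test), a fall of 12.9%. The KO libraries varied by a CV of 1.52%, close to the 1.51% that counting alone gives at this depth, while the WT libraries varied by 4.37% against 1.42%. The study also measured this gene by qPCR. Those primers are shown because they place that assay within the transcript: the forward primer lies at chr11:40753964-40753984 and the reverse primer at chr11:40753909-40753930, both in exon 2 of the 6 exons of its transcript, and they enclose 76 bases.
Ccng1 forward primer: aaggtctgcggcttgaaacta
Ccng1 reverse primer: caaagtcccgtaatcttgcagt

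*Cdkn1a*, which encodes the cyclin-dependent kinase inhibitor p21, fell most in the set. It lies on chr17:29090976-29100727 (GRCm38, plus strand). It was at 42.8, 43.1 and 46.5 CPM in WT and 26.7, 31.8 and 30.9 CPM in KO. KO a was the lowest library, and WT a, the lowest of its group, still exceeded KO b, the highest of its group, by 1.34 times. The log2 fold change was -0.57 (SE 0.0658, 95% interval -0.70 to -0.43, adjusted p = 1.81e-07, edgeR's quasi-likelihood test), a fall of 32.5%. Of its 50-base words 8.49% occur in other transcripts, mainly AC167363.2 on the opposite strand, which is not listed in the count table. The strand setting of the counting is not given in the sources used here, so reads within the exonic overlap of 273 bases, 7.7% of the exon bases of *Cdkn1a*, cannot be assigned to either gene.

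*Plk2* encodes polo-like kinase 2, a kinase of centriole duplication that is induced by serum and by stress. It lies on chr13:110395046-110400844 (GRCm38, plus strand). It was at 156, 163 and 159 CPM in WT and 109, 116 and 116 CPM in KO. The WT libraries varied by a CV of 2.24% and the KO libraries by 3.64%, and the groups lay well apart. The log2 fold change was -0.49 (SE 0.0385, 95% interval -0.57 to -0.41, adjusted p = 1.21e-10, edgeR's quasi-likelihood test), a fall of 28.8%.

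*Sesn1* encodes sestrin 1, which restrains mTORC1 through the GATOR complexes and is linked to defence against oxidative stress. It lies on chr10:41809935-41908424 (GRCm38, plus strand). It was at 75.9, 74.0 and 69.7 CPM in WT and 56.3, 54.2 and 54.4 CPM in KO. All KO libraries were close together and below WT c, the lowest WT library. The log2 fold change was -0.41 (SE 0.0488, 95% interval -0.51 to -0.31, adjusted p = 2.41e-07, edgeR's quasi-likelihood test).

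*Trp53inp1*, whose product promotes autophagy and p53 activity under stress, was at 27.4, 25.6 and 22.9 CPM in WT and 18.3, 20.3 and 18.4 CPM in KO. The gene lies on chr4:11156431-11174379 on the plus strand of GRCm38. WT c was again the lowest WT library, 1.13 times the highest KO library. The log2 fold change was -0.42 (SE 0.0778, 95% interval -0.58 to -0.26, adjusted p = 1.63e-04, edgeR's quasi-likelihood test). WT c was thus the lowest WT library for *Ccng1*, *Sesn1* and *Trp53inp1* but the highest for *Cdkn1a*, and all 5 calls held without it.

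The remaining targets gave no call. *Bax*, the pore-forming effector of apoptosis, was at 19.6, 18.1 and 21.4 CPM in WT and 19.7, 18.4 and 18.1 CPM in KO. Its log2 fold change of -0.07 had a 95% interval of -0.23 to 0.10, and 8.51% of its 50-base words are shared, all with the overlapping gene model *Gm45808*. *Phlda3*, an inhibitor of Akt at the membrane, was at 20.4, 19.9 and 23.3 CPM in WT and 25, 21.9 and 21.1 CPM in KO. It had the highest log2 fold change of the set, 0.11, with an interval of -0.06 to 0.27, and KO a alone lay above every WT library. *Zmat3*, an RNA-binding protein, was at 36.3, 38.4 and 40.6 CPM in WT and 34.0, 39.8 and 34.8 CPM in KO, a log2 fold change of -0.09 with an interval of -0.22 to 0.04. For all 3 genes the groups overlapped and the adjusted p was 0.321 or more (edgeR's quasi-likelihood test).

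**Figure D2:**
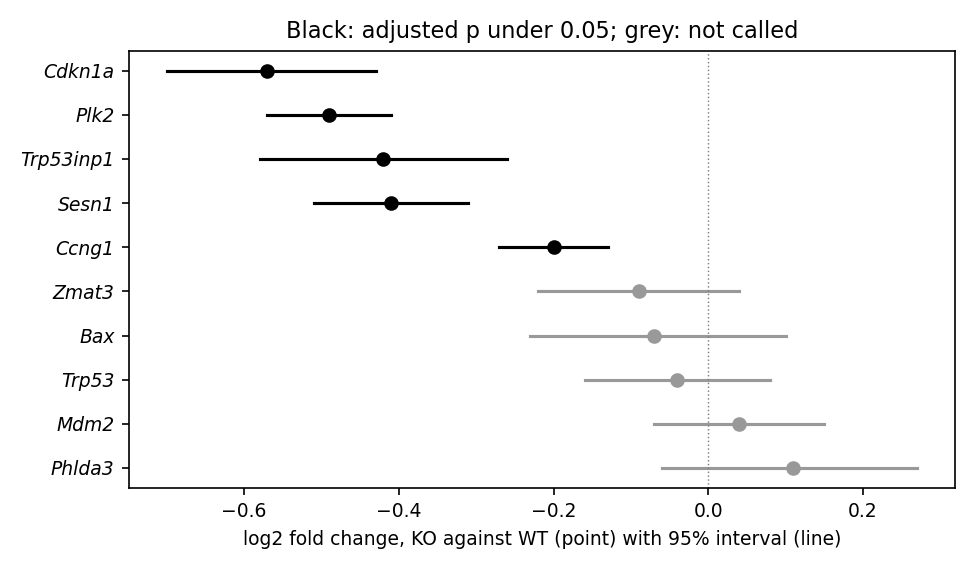
Log2 fold change of KO against WT for the 10 genes (points) with 95% intervals (lines), in black where the adjusted p was under 0.05. The 5 black intervals lie between -0.70 and -0.13, and the 5 grey intervals cross 0.

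Per kilobase of annotated exon (RPKM), *Ccng1* was the most abundant of the 10 transcripts in both genotypes, with a level of 80.6 ± 3.52 RPKM (SD, n = 3) in WT and 70.2 ± 1.07 RPKM in KO. *Plk2* followed with 35.5 and 25.3 RPKM, and both stood apart from their neighbours in every library. In WT the order went on with *Sesn1* (18.4), *Phlda3* (13.6), *Bax* (12.5), *Cdkn1a* (12.4), *Mdm2* (11.1), *Trp53* (10.5), *Trp53inp1* (3.91) and *Zmat3* (3.36 RPKM). The library ranges overlapped between *Phlda3* and *Bax*, *Bax* and *Cdkn1a*, *Mdm2* and *Trp53*, and *Trp53inp1* and *Zmat3*. In KO *Cdkn1a* took rank 8, with 8.39 RPKM, below *Trp53* and *Mdm2*. With the longest annotated transcript as the length, 4 of the 10 genes kept their WT rank, and *Cdkn1a* rose to rank 3 with 21.2 RPKM.

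**Figure D3:**
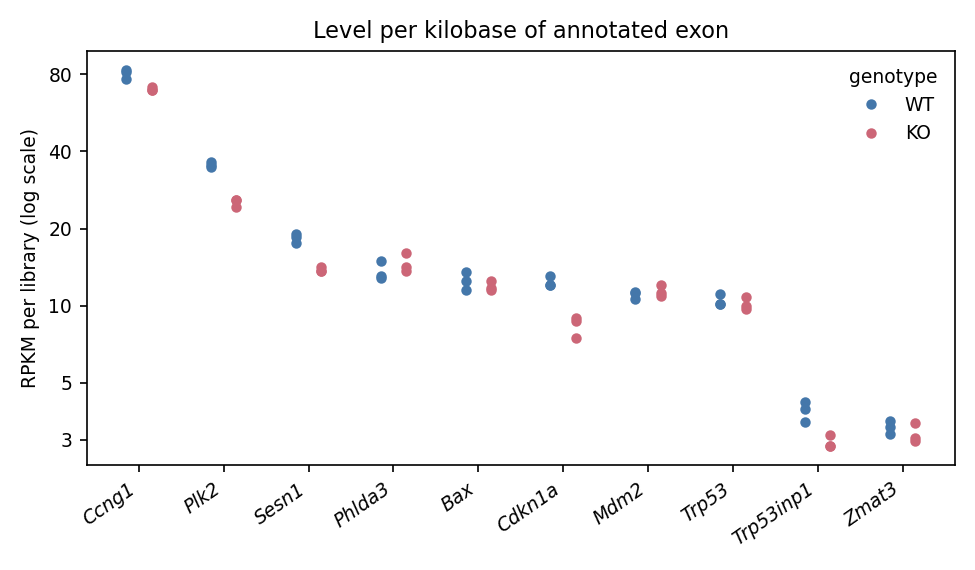
Level of the 10 genes in RPKM (log axis) in each WT (blue) and KO (red) library, ordered by the WT mean. *Ccng1* is highest at 69.6 to 83.4 RPKM over both genotypes, and *Trp53inp1* and *Zmat3* are lowest.

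Likeness to *Ccng1* was measured over 13501 other genes that averaged 1 CPM or more and had counts in every library. The 5 whose log2 CPM over the 6 libraries, centred on each gene's mean, lay closest to it were *Mut*, *Pdp1*, *Hipk3*, *Tmf1* and *Oard1*, with root mean square differences of 0.0139, 0.0159, 0.0164, 0.0188 and 0.0198. *Mut*, the mitochondrial methylmalonyl-CoA mutase, was at 88.6, 87.9 and 80.7 CPM in WT and 75.7, 76.3 and 74.6 CPM in KO. *Hipk3*, a kinase of the family that includes the p53 kinase HIPK2, was at 764, 743 and 683 CPM in WT and 627, 633 and 626 CPM in KO. Both repeat the order of *Ccng1* within WT, with WT c lowest, but they were selected for this likeness, so the order is no separate result. All 6 points share the library scaling.

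RefSeq start windows, from 250 bases before to 50 after the start, were held for 8 of the 10 genes, with a pair each for *Cdkn1a* and *Sesn1*. A p53 consensus of 10 letters, which reads the same on both strands, occurred in 6 of the 8 genes, against 9.55% of 27025 genes with a window. Each 10-letter match is given because it is what the count rests on: ggacttgccc in *Trp53*, gaacttgcct in *Mdm2*, ggactagctt and gaacatgtct in *Cdkn1a*, gggcaagcct in *Ccng1*, aggcaagctt in *Bax* and aagcttgttt in *Sesn1*. *Plk2* and *Phlda3* had no match. The site of 20 letters with at most 1 mismatch, marked in the sequences above, occurred in 2 of the 8 genes and in 0.107% of all genes with a window. Of the 6 genes in the count table that hold one, *Cdkn1a*, *Ccng1* and *Gtse1* (log2 fold change -0.21, adjusted p = 0.0244) were lower in KO, and *Rps27l* (-0.00), *Mthfd1* (0.06) and *Calhm2* (0.28) were not called (edgeR's quasi-likelihood test). *Mdm2* was not called although its window held a 10-letter match, and *Plk2* was lower without one. These targets were known before and the 20-letter form was chosen after the data were seen, so the matches are a description only. Sites outside the windows were not searched.

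CCAAT, the letters bound by the factor NF-Y, was searched on both strands and occurred in 4 of the 8 genes, against 41.1% of all genes with a window. *Ccng1* held 4 matches, beginning at positions -216, -123, -42 and 2. *Trp53*, *Mdm2* and *Sesn1* held the others, and *Cdkn1a*, *Plk2*, *Bax* and *Phlda3* held none.

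**Figure D4:**
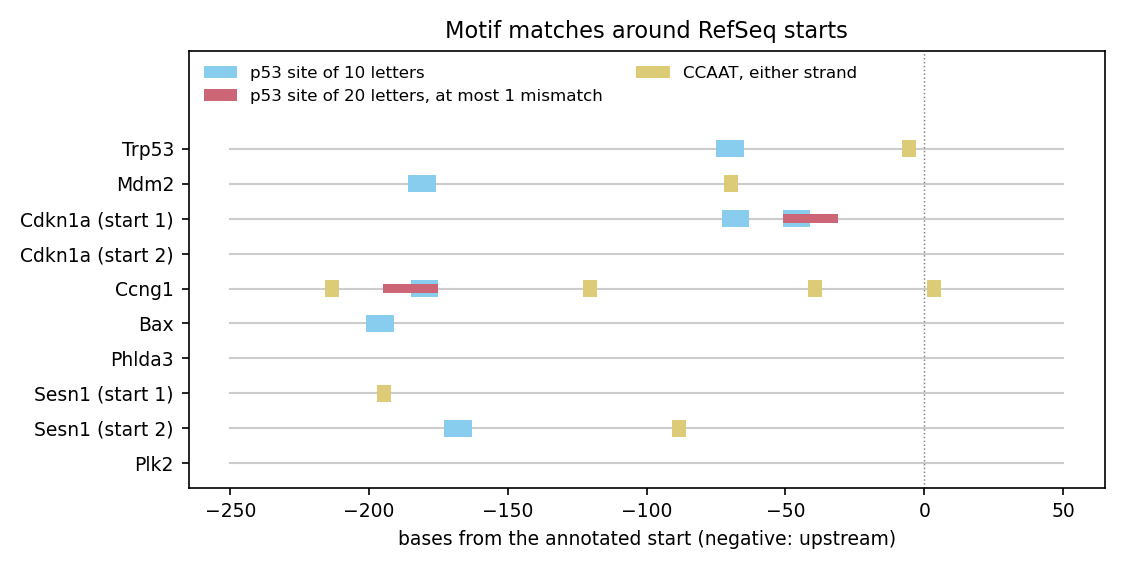
Positions of the matches in the 10 start windows of 8 genes, in bases from the annotated start. *Cdkn1a* (upstream start) and *Ccng1* carry the red 20-letter p53 site, and *Ccng1* carries 4 yellow CCAAT matches.

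Other p53 targets moved in part. Of 30 tested, 11 were lower and 1 higher (all genes tested: 15.7% and 14.6%), with a median log2 fold change of -0.06. Without KO c 6 were lower and 0 higher. *Btg2*, an antiproliferative gene, fell from 148 to 25.4 CPM (log2 fold change -2.54), and *Fas*, a death receptor, from 2.97 to 1.28 CPM (-1.22). The BH3-only genes *Pmaip1* and *Bbc3* fell by 0.93 and 0.72 on the log2 scale. The single gene that rose was *Dram1* (0.64), a regulator of autophagy, and this call was lost with DESeq2 and without WT b, KO b or KO c. The calls are edgeR's at an adjusted p under 0.05.

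Of 17 regulators of p53, 5 were higher and 2 lower (all genes tested: 14.6% and 15.7%), with a median of 0.01. The DNA damage kinases *Chek1* (0.29), *Atm* (0.27) and *Atr* (0.23), the acetyltransferase *Ep300* (0.19) and the MDM2 partner *Mdm4* (0.10) were higher. *Chek1*, *Atm* and *Atr* all lie on chromosome 9, as does the targeted gene *Pkm*. The part of this shared chromosome in their rise was not tested. The deacetylase *Sirt1* (-0.26) and the kinase *Hipk2* (-0.16) were lower, and 1 of them lost its call without WT c, KO b or KO c. For *Hipk2* the groups overlapped.

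Among 15 relatives of the 10 genes, 6 were lower and 2 higher (all genes tested: 15.7% and 14.6%), with a median of -0.04. *Trp63* fell from 1.86 to 0.782 CPM (log2 fold change -1.21), *Phlda1* from 37.3 to 22.8 CPM (-0.71) and *Plk3* from 5.28 to 3.79 CPM (-0.49). *Ccng2*, the closest relative of *Ccng1*, was not called (adjusted p = 0.804, edgeR's quasi-likelihood test). *Zmat1* (0.29), which lies on X, and *Mdm4* were higher. For *Zmat1* too, sex and genotype cannot be told apart. The count of higher relatives was 1 without WT b or KO a and 0 without WT c, KO b or KO c.

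Of 12 cyclins, kinases and other partners of p21, 3 were lower and 0 higher (all genes tested: 15.7% and 14.6%). Their median was -0.08, and without WT c 5 were lower. At an unadjusted p under 0.05, 4 were lower and 0 higher, and no other test called one higher. *Ccnd1*, *Ccna2* and *Ccnd2*, which drive G1 and S phase, fell by 0.16, 0.16 and 0.14 on the log2 scale. Of 10 partners of sestrin, *Seh1l* (0.25), a GATOR2 subunit, was higher and 0 were lower by edgeR's quasi-likelihood test, also at an unadjusted p under 0.05 and by every other test run, and 2 were higher without WT b.

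Of 17 BCL2 family members and partners of BAX, 3 were higher and 5 lower (all genes tested: 14.6% and 15.7%). Their median was -0.08, and 3 were lower without WT b or KO c. The antiapoptotic *Bcl2* averaged 42.1 CPM in WT against 59.9 CPM in KO hearts (log2 fold change 0.51, SE 0.0534), and the mitophagy receptors *Bnip3* (0.39) and *Bnip3l* (0.28) also rose. The antiapoptotic *Bcl2l1* (-0.36) and *Mcl1* (-0.19), the proapoptotic *Bik* (-0.32), and *Casp9* (-0.23) and *Cycs* (-0.17) of the apoptosome pathway fell.

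**Figure D5:**
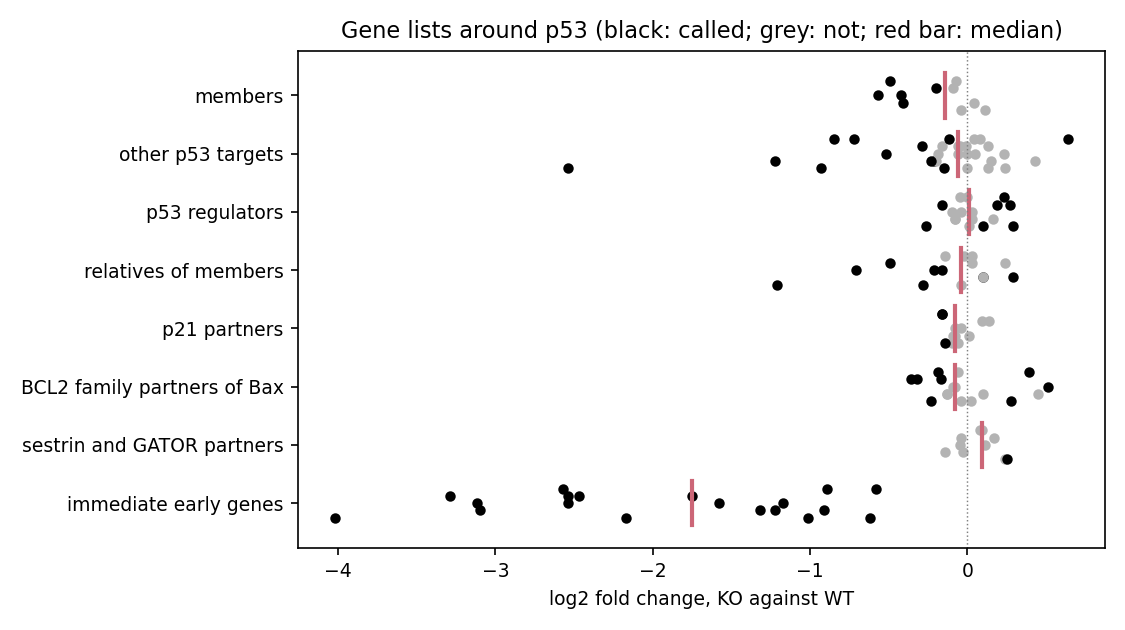
Log2 fold change of every tested gene in 8 lists (points, black where the adjusted p was under 0.05) with list medians as red bars. The immediate early genes lie furthest left, from -4.02 to -0.58, and the other medians lie between -0.14 and 0.09.

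Beside these values, immediate early genes, which cells induce within minutes of a stimulus, were lower in KO for 19 of 19 tested. Their median log2 fold change was -1.75, and over all genes tested 15.7% were lower. The list was chosen with earlier results of these data known, so this count is a description only. Their summed level was 2470 to 2680 CPM in WT and 499 to 507 CPM in KO. *Btg2* belongs to both this list and the p53 targets. *Plk2*, *Cdkn1a* and *Ccng1* are not on the list as chosen, although *Plk2* is also induced by serum, as given above. The part of the immediate early genes in the fall of the 5 p53 genes was not tested.

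Markers of the cell types in the tissue were also summed. Their calls stand beside 15.7% lower and 14.6% higher over all genes tested. The summed levels were 58600 to 62100 CPM in WT and 54400 to 55200 CPM in KO for 8 cardiomyocyte markers (6 lower, 2 higher), 1070 CPM and 993 to 1010 CPM for 6 endothelial markers (3 lower), and 2650 to 2660 CPM and 2440 to 2480 CPM for 6 fibroblast markers (3 lower). For 5 epicardial markers the sums were 115 to 118 CPM and 127 to 142 CPM (2 higher), for 6 immune markers 33.2 to 36.3 CPM and 32.4 to 39.2 CPM (1 lower), for 4 smooth muscle markers 611 to 654 CPM and 628 to 639 CPM (1 lower, 1 higher), and for the 2 erythroid markers tested 27.2 to 28.0 CPM and 31.0 to 37.5 CPM (1 higher), with the other 3 erythroid markers not analysed here. No marker tested was at 0, and the cardiomyocyte markers are abundant in every library, as the label of the tissue says. The part of these markers in the p53 genes' fall was not tested.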

How the data were processed

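Total RNA depleted of ribosomal RNA was sequenced as paired ends from 3 WT and 3 KO samples. Per the labels, the authors trimmed reads with cutadapt 1.18, aligned them with HISAT2 to mm10 and used StringTie; the counting program, annotation and strand setting are not given in the sources used here. The authors deposited unnormalized read counts for each gene symbol, with 4 columns of their own comparison (log2 fold change, mean log2 CPM, p-value and false discovery rate) that were not used, and 0 columns of other samples. In edgeR 4.0.16 (R 4.3.3), filterByExpr kept 13804 genes and left out 5, TMM set the scaling, and KO was tested against WT by quasi-likelihood without covariates, and p-values were adjusted by Benjamini-Hochberg across every gene kept. The SE is the unshrunk log2 fold change divided by the root of F. RPKM used the union of GENCODE exons on GRCm38. The samples are described as biological replicates.

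The members and lists were chosen with earlier results of these data known. Named genes were the 10 members, up to 5 called genes per list and direction by fold change (mean of at least 1 CPM), *Ccng2* (chosen after its value was seen), the 6 genes with a 20-letter site, the 5 patterns nearest to *Ccng1*, *Pkm* and genes that part the libraries. 1 gene that this rule names is not reported here. On simulated counts, 166 of 200 genes changed by 1.5-fold were recovered (83%) among 13804, with 8 false calls. The called members changed by less, from 1.15-fold (*Ccng1*) to 1.48-fold (*Cdkn1a*), and recovery at such sizes was not simulated. Alternatives used DESeq2 1.42.0, limma 3.58.1 voom, edgeR's exact and likelihood ratio tests, RLE factors, other filters, genes on X and Y left out, and each library left out. Figures were drawn with matplotlib 3.10.9.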

Additional observations from a re-analysis of the deposited data

How the results depend on the processing

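No paired analysis was possible because column names give the genotype alone. Under all 14 alternatives for scaling, test, filter, sex chromosomes and left-out libraries, the same 5 members were called lower (log2 fold changes -0.61 to -0.49 for *Cdkn1a*, -0.51 to -0.46 for *Plk2*, -0.45 to -0.39 for *Sesn1*, -0.48 to -0.36 for *Trp53inp1*, -0.24 to -0.18 for *Ccng1*) and the other 5 were not called and kept their direction. Leaving out X and Y genes does not part sex from genotype, since the libraries themselves stay the same. Over the whole table, 1704 to 2306 genes were lower and 1479 to 2013 higher with 1 library left out, and DESeq2 gave 1639 and 1363.

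The counts of the small lists moved more. With DESeq2, 0 other p53 targets and 0 relatives were higher and 3 BCL2 family partners were lower. With edgeR's exact test 1 regulator was lower, and without X and Y genes 1 relative was higher. With 1 library left out, 1 to 2 regulators were lower, 6 to 11 other targets were lower and 0 to 2 higher, 0 to 2 relatives were higher, 3 to 5 p21 partners were lower, 3 to 6 BCL2 family partners were lower and 1 to 2 sestrin partners were higher. With the longest transcript as length, 4 members kept their WT rank. The p53 motif matched 6 members as 10 letters, 1 as both 10-letter sites within 13 bases and 2 as 20 letters with 1 mismatch, the last chosen after seeing the data. The cause of these moves was not tested. Depth limits the low list genes such as *Pmaip1*, *Fas* and *Trp63*, which lie below 3 CPM in WT.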
